A study of Mus musculus with 4 samples.

Results

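The 10 genes described here encode the subunits of the BAF chromatin remodeller that differ between neural progenitors and neurons. They were taken by name, for these known roles, out of 55602 genes in the gene-level table. The progenitor-type genes were *Actl6a*, *Smarcd1*, *Phf10*, *Dpf2* and *Ss18*, and the neuron-type genes were *Actl6b*, *Smarcd3*, *Dpf1*, *Dpf3* and *Ss18l1*. They fall into 4 subunit positions, namely BAF53 (*Actl6a* against *Actl6b*), BAF60 (*Smarcd1* against *Smarcd3*), BAF45 (*Phf10* and *Dpf2* against *Dpf1* and *Dpf3*) and SS18 (*Ss18* against *Ss18l1*). All 10 had more than 8 counts over the 4 libraries and were tested.

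BAF is the mammalian SWI/SNF complex, which uses ATP hydrolysis by SMARCA4 or SMARCA2 to slide or evict nucleosomes. When a neural progenitor leaves the cell cycle and becomes a neuron, several positions of the complex are known to exchange a progenitor-type for a neuron-type homologue. In the known circuit, the repressor REST holds the microRNAs miR-9-3p and miR-124 down in progenitors, and these microRNAs in turn target the transcript of *Actl6a* in neurons.

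Hybrid JB1 mouse ES cells, male and with a JF1 mother and a C57BL/6 (B6) father, were driven towards cortical neural precursors in culture and their RNA was sequenced. The 2 wild-type libraries came from JB1 cells, and the 2 *Zfp57*-/- libraries came from the ES line derived from JB1 in which the gene of ZFP57, a zinc finger protein that keeps methylation at imprinted control regions, was inactivated. Both genotypes received 1 µM cyclopamine, an inhibitor of Sonic hedgehog signalling, from day 2 to day 10 and were harvested at day 12. Each genotype is thus a single line in biological duplicate, and the effect of the deletion cannot be told apart from other differences between these lines. P-values measure the spread between these duplicates.

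The 4 libraries held 7663520 to 10337082 counts, of which 36.1% to 37.0% could also be assigned to an allele. *Zfp57* itself had 392 and 249 counts in wild-type against 158 and 144 in *Zfp57*-/- libraries. Which part of the gene was deleted is not given in the sources used here, so these counts do not check the labels. Against the label of neural precursors, the libraries differed in cell type markers. Of 10 neuron markers, 9 were lower in *Zfp57*-/- cells, and their summed level was 16031 and 20501 normalized counts in wild-type against 2458 and 2028 in *Zfp57*-/- cells. Of 8 neural progenitor markers, 6 were lower and none higher, with sums of 16212 and 17795 against 11128 and 11256. *Vim*, the largest part of these sums, changed by -0.25 on the log2 scale (7362 and 9078 against 6948 and 6893 normalized counts). The median log2 fold change of the 8 markers was -2.15, with 7 negative and 1 positive. All 8 pluripotency markers were higher, with sums of 39.6 and 75.5 against 12221 and 10665, and *Nanog* was at 0 counts in both wild-type libraries. Of 6 cell cycle markers, 3 were higher and none lower, with sums of 16470 and 18619 against 18569 and 18220. None of 7 endoderm markers passed, with sums of 3075 and 4606 against 4199 and 5755. Of 5 endothelial markers, 2 were higher and 1 was lower, with sums of 3278 and 2182 against 2262 and 2742. The wild-type replicates differed from each other in *Gata4* (632 and 1500 normalized counts) and, the other way, in *Ttr* (1087 and 248). Wild-type replicate 1 stood apart from the other 3 libraries in *Actb*, with 17057 normalized counts against 33846 to 37767. The part of cell make-up in these replicate differences was not tested. In bulk RNA, fewer cells of a type and less RNA per cell cannot be told apart.

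The neuron-type subunits were lower in *Zfp57*-/- cells at 3 of 5 genes, whereas none of the 5 progenitor-type subunits passed the threshold. A gene passed at a p of 0.05 in the quasi-likelihood test of edgeR, adjusted by Benjamini-Hochberg over the 19995 genes tested, and of these genes 27.6% passed, 14.6% as lower and 13% as higher in *Zfp57*-/- cells. The median log2 fold change, *Zfp57*-/- over wild-type, was -1.57 for the neuron-type and -0.07 for the progenitor-type genes, against -0.01 for all genes tested. Normalized counts (counts scaled to a common library size by the TMM method) of the genotypes did not overlap at any neuron-type gene. Among the progenitor-type genes they did not overlap either at *Actl6a* and *Ss18*, higher in *Zfp57*-/- cells, and at *Phf10*, lower. Of all genes tested, 32.6% had all *Zfp57*-/- values below the wild-type values and 33.7% had them above. The count of 0 progenitor-type genes past the threshold was also 0 at an unadjusted p of 0.05 and 0 by DESeq2. Without wild-type replicate 1 the calls were 5 neuron-type and 1 progenitor-type genes, and without wild-type replicate 2 they were 3 and 2. The part of the neuron, neural progenitor and pluripotency markers in these differences was not tested.

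**Figure D1:**
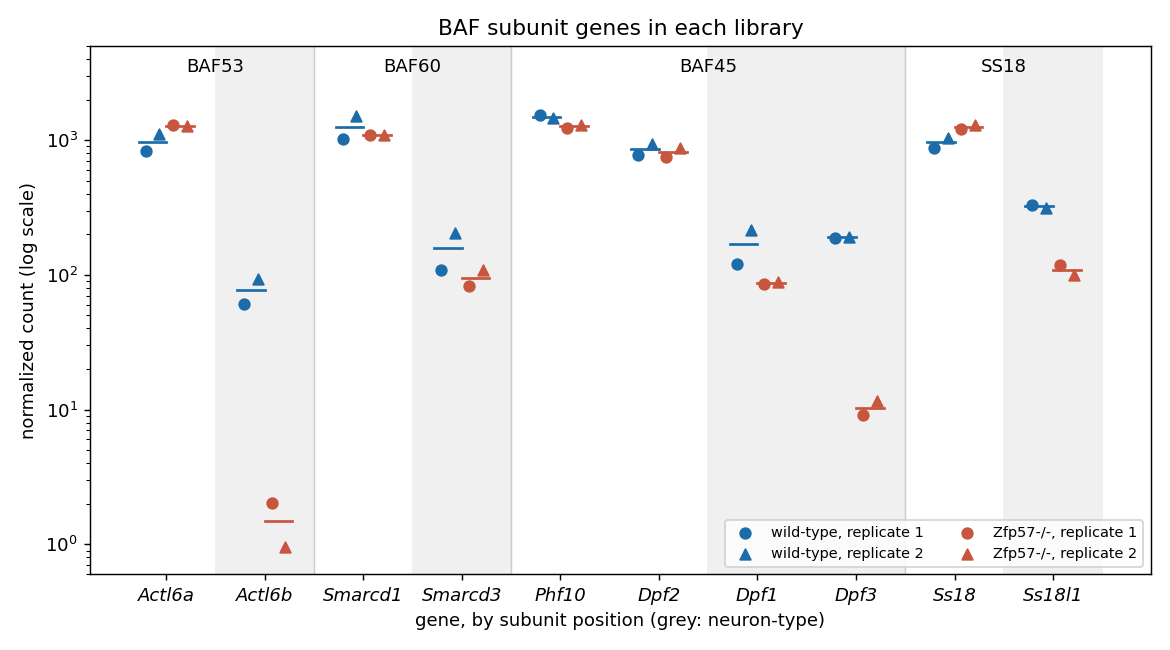
Normalized count (log axis) of the 10 BAF subunit genes in each of the 4 libraries, grouped by subunit position. Points are libraries and short lines are genotype means. The neuron-type genes, on grey, lie lower in *Zfp57*-/- cells, most of all *Actl6b* (77.0 against 1.49 on average) and *Dpf3* (190 against 10.3), while the progenitor-type genes stay between 748 and 1533 in every library.

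By fold change the widest difference among the members was at BAF53, an actin-related subunit. *Actl6b* (ENSMUSG00000029712.14, chromosome 5 from 137553517 to 137569582 on GRCm38) encodes the neuronal form, BAF53b, which is known for its part in dendrite growth. It had 52 and 104 counts in the wild-type libraries and 2 and 1 in the *Zfp57*-/- libraries. Both *Zfp57*-/- libraries were thus at or under 3 counts, and both wild-type libraries were far above. The ratio of wild-type to *Zfp57*-/- counts per effective library size was 53.5 (95% exact interval 18.0 to 262, counting error only). The log2 fold change was -5.59 (standard error 0.65, adjusted p = 0.000225), and *Actl6b* passed the threshold under all 13 alternative settings.

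*Actl6a* (ENSMUSG00000027671.14, chromosome 3 from 32706298 to 32726973) encodes BAF53a, the form of progenitors and other dividing cells, which also sits in the INO80 and TIP60 complexes. It had 714 and 1236 counts in wild-type against 1271 and 1325 in *Zfp57*-/- libraries. After normalization these were 832 and 1111 against 1284 and 1275, with wild-type replicate 1 the lowest. The *Zfp57*-/- values were above both wild-type values, and they exceeded wild-type replicate 2 by less than the wild-type replicates differed from each other. The change (log2 0.40, standard error 0.20, adjusted p = 0.18) did not pass. Without wild-type replicate 2 it was 0.62 and passed (adjusted p = 5.73e-05), with a range of 5.73e-05 to 0.815 over the alternatives, and with *Actb* as the scale it was -0.22.

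The promoters of both BAF53 genes are shown because REST is the known repressor of many neuronal genes, and its RE1 motif consists of the 2 parts CAGCACC and GGACAG. Both parts were searched on both strands in 300 bases around the start of each gene in RefSeq (GRCm38.p6), 250 before and 50 after. In the sequences, capitals mark the matches, which appear in *Actl6b* as the reverse complements CTGTCC and GGTGCTG. They begin 23 and 38 bases after the start, with 9 bases between them.
Actl6b promoter, chr5:137553296-137553595, plus strand: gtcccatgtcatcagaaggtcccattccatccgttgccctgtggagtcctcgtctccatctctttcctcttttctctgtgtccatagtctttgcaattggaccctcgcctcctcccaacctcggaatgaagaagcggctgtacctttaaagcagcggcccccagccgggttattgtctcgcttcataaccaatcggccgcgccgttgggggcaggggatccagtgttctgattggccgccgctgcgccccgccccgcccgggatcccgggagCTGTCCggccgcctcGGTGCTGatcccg
Actl6a promoter, chr3:32708296-32708595, plus strand: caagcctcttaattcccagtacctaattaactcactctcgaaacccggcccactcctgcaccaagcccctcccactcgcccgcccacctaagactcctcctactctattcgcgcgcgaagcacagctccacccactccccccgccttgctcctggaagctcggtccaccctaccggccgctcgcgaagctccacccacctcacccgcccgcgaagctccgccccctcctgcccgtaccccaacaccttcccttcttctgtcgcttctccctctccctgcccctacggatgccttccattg
Of 32851 promoters in the table, 7.14% held CAGCACC, 22.2% held GGACAG, and 0.594% held both in this order on the same strand. The last share counts both parts at any distance within the window, since the search set no spacing between them. Among the 9 members with an entry, *Actl6b* held both parts, *Dpf2* held GGACAG alone, and the other 7 held neither. A match is a description of the letters and not a binding site, and no match says only that these letters are not in this window.

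At BAF45, a position of PHD finger proteins that read histone tails, the neuron-type genes differed from each other. *Dpf3* (ENSMUSG00000021221.15, chromosome 12 from 83213745 to 83487716), which encodes BAF45c, had 161 and 213 counts in wild-type against 9 and 12 in *Zfp57*-/- libraries. The replicates of each genotype lay close together, at 188 and 191 against 9.09 and 11.5 normalized counts. The log2 fold change was -4.18 (standard error 0.35, adjusted p = 2.79e-05), and it lay between -4.86 and -4.01 under the 13 alternatives.

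*Dpf1* (ENSMUSG00000030584.14, chromosome 7 from 29303951 to 29318243), which encodes the neuronal BAF45b, had 103 and 241 counts in wild-type against 85 and 92 in *Zfp57*-/- libraries. All values of the *Zfp57*-/- cells were below those of wild-type, but wild-type replicate 1 (120 normalized counts) was nearer to the *Zfp57*-/- libraries (85.9 and 88.5) than to wild-type replicate 2 (217). The change (log2 -0.95, standard error 0.32) missed the threshold narrowly (adjusted p = 0.0523). It passed under 6 of 13 alternatives, with adjusted p between 1.85e-07 (without wild-type replicate 1) and 0.236.

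The composition of the neuron-type BAF45 transcripts therefore differed between genotypes. Per kilobase of transcript, *Dpf3* made up 66.5% and 52.9% of the sum of *Dpf1* and *Dpf3* in wild-type libraries and 11.9% and 14.2% in *Zfp57*-/- libraries. This split was computed after the values of both genes had been seen.

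The progenitor-type BAF45 genes did not pass the threshold. *Phf10* (ENSMUSG00000023883.13, chromosome 17 from 14945009 to 14961273) encodes BAF45a, which is known to sustain the division of neural progenitors. It had 1315 and 1624 counts in wild-type against 1224 and 1347 in *Zfp57*-/- libraries, which differed by -0.24 on the log2 scale (standard error 0.18, adjusted p = 0.362). Its normalized counts did not overlap, at 1533 and 1459 in wild-type against 1237 and 1296 in *Zfp57*-/- libraries. *Dpf2* (ENSMUSG00000024826.14, chromosome 19 from 5896516 to 5913010) encodes BAF45d, which is found in most tissues. Its 668 and 1035 counts in wild-type against 740 and 911 in *Zfp57*-/- libraries overlapped after normalization (log2 fold change -0.07, standard error 0.20, adjusted p = 0.813). Neither gene passed under any of the 13 alternatives, and the sign of *Dpf2* turned under 4 of them.

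At the SS18 position, *Ss18l1* (ENSMUSG00000039086.9, chromosome 2 from 180042509 to 180070201), which encodes the calcium-responsive transactivator CREST, had 285 and 351 counts in wild-type against 117 and 103 in *Zfp57*-/- libraries. In normalized counts these were 332 and 315 against 118 and 99.1, so that the genotypes were well apart and the replicates were close. The log2 fold change was -1.57 (standard error 0.23, adjusted p = 0.000868), and *Ss18l1* passed under all 13 alternatives. *Ss18* (ENSMUSG00000037013.16, chromosome 18 from 14624198 to 14682914), the progenitor-type homologue, had 756 and 1162 counts in wild-type against 1192 and 1343 in *Zfp57*-/- libraries. Its normalized counts did not overlap (881 and 1044 against 1204 and 1292), but its fold change (log2 0.37, standard error 0.19, adjusted p = 0.176) did not pass. It passed without wild-type replicate 2 (0.50, adjusted p = 0.00125) and with a gene length offset combined with a replicate block (adjusted p = 0.017), over a range of 0.00125 to 0.766, and with *Actb* as the scale its log2 fold change was -0.27.

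At BAF60, a position that contacts transcription factors, no difference passed the threshold. *Smarcd3* (ENSMUSG00000028949.13, chromosome 5 from 24590818 to 24624411) encodes BAF60c, known from heart and skeletal muscle as well as neurons, and had 94 and 229 counts in wild-type against 82 and 112 in *Zfp57*-/- libraries. Wild-type replicate 2 (206 normalized counts) stood above the other 3 libraries (82.8 to 110). On the log2 scale the change was -0.73 (standard error 0.34, adjusted p = 0.139). Without wild-type replicate 1 it was -1.13 and passed (adjusted p = 1.17e-05), whereas without wild-type replicate 2 it was -0.20 (adjusted p = 0.573, the highest over the alternatives).

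Because *Smarcd3* is also a gene of muscle, the cardiac and muscle markers are given beside it. Their sum was 417 and 164 normalized counts in wild-type against 1699 and 1696 in *Zfp57*-/- libraries, with 4 of 10 higher and 1 lower in *Zfp57*-/- cells. The 2 highest of them, *Myh7* and *Actc1*, had 149 and 103 and 61 and 35 counts in wild-type, against 923 and 1080 and 448 and 378. Among the defining markers, *Tnnt2* had 23 and 14 counts in wild-type against 184 and 164 in *Zfp57*-/- libraries, and *Myh6* had 49 and 5 against 33 and 40. Their part in the level of *Smarcd3* was not tested.

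*Smarcd1* (ENSMUSG00000023018.5, chromosome 15 from 99702129 to 99713991), which encodes BAF60a, had 878 and 1669 counts in wild-type against 1074 and 1135 in *Zfp57*-/- libraries. The *Zfp57*-/- values (1085 and 1092 normalized counts) lay between those of the wild-type replicates (1023 and 1500). On the log2 scale the change was -0.21 (standard error 0.22, adjusted p = 0.512). It passed as lower without wild-type replicate 1 (-0.49, adjusted p = 0.000903) and was 0.09 without wild-type replicate 2, over a range of adjusted p from 0.000903 to 1.

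Levels can be compared between genes only per length, for which TPM values (counts per kilobase, scaled to the same sum in every library) were computed. In wild-type cells the neuron-type genes ranged from 6.02 ± 1.602 (SD, n = 2) TPM for *Actl6b* through 10.2 ± 4.08 for *Smarcd3*, 10.4 ± 3.87 for *Dpf1* and 15.03 ± 0.342 for *Dpf3* to 25.01 ± 1.83 for *Ss18l1*. *Smarcd3* and *Dpf1* overlapped in their replicates, whereas *Ss18l1* was above all others in both libraries. In *Zfp57*-/- cells the order from the lowest was *Actl6b* at 0.0962 ± 0.0458 TPM, *Dpf3* at 0.679 ± 0.134, *Dpf1* at 4.50 ± 0.229, *Smarcd3* at 5.18 ± 1.11 and *Ss18l1* at 6.93 ± 0.658, with the replicates of *Dpf1* and *Smarcd3* overlapping. *Dpf3* moved from the second highest to the second lowest of the 5. The progenitor-type genes lay above the neuron-type genes in both genotypes, from 34.2 ± 2.84 TPM for *Ss18* to 105 ± 24.2 for *Smarcd1* in wild-type and from 34.7 ± 4.91 for *Dpf2* to 91.3 ± 2.23 for *Actl6a* in *Zfp57*-/- cells.

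The within-position comparison asks which part of the transcripts for each position was of the neuron type. It was computed per library as the neuron-type share of the reads per kilobase of that position. The share was lower in both *Zfp57*-/- libraries than in both wild-type libraries at all 4 positions. With 2 against 2 libraries, the smallest two-sided p of an exact permutation test is 0.333, so this design cannot reach 0.05, and each of the 4 comparisons gave that p (0.333 after adjustment).

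At BAF53 the neuron-type share was 6.22% (95% Wilson interval 4.77 to 8.07) and 7.12% (5.91 to 8.56) in the wild-type libraries. In the *Zfp57*-/- libraries it was 0.143% (0.0392 to 0.520) and 0.0687% (0.0121 to 0.388). The intervals, which cover counting error only, did not overlap between genotypes.

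At BAF45 the share was 13.4% and 16.3% in wild-type against 4.71% and 4.595% in *Zfp57*-/- libraries. The difference of the genotype means was -10.2 percentage points, larger than the spread between replicates (SD 2.04 in wild-type and 0.0816 in *Zfp57*-/- cells). With *Phf10* left out of the position, the genotype means were 36.6% and 13.04%.

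At SS18 the share was the highest of the 4 positions, with 45.0% (41.6 to 48.4) and 39.6% (36.8 to 42.5) in wild-type. It was 17.6% (14.97 to 20.5) and 14.3% (12.0 to 16.9) in *Zfp57*-/- libraries, a difference of -26.4 percentage points between genotype means. Since *Ss18* has a longer annotated exon length than *Ss18l1*, the share of counts without division by length was lower, at 25.3% and 8.03% on average.

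At BAF60 the shares of the genotypes were next to each other. They were 7.76% (6.37 to 9.43) and 9.74% (8.59 to 11.02) in wild-type, and 5.66% (4.58 to 6.99) and 7.20% (6.01 to 8.61) in *Zfp57*-/- libraries. The interval of wild-type replicate 1 overlapped those of both *Zfp57*-/- libraries.

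**Figure D2:**
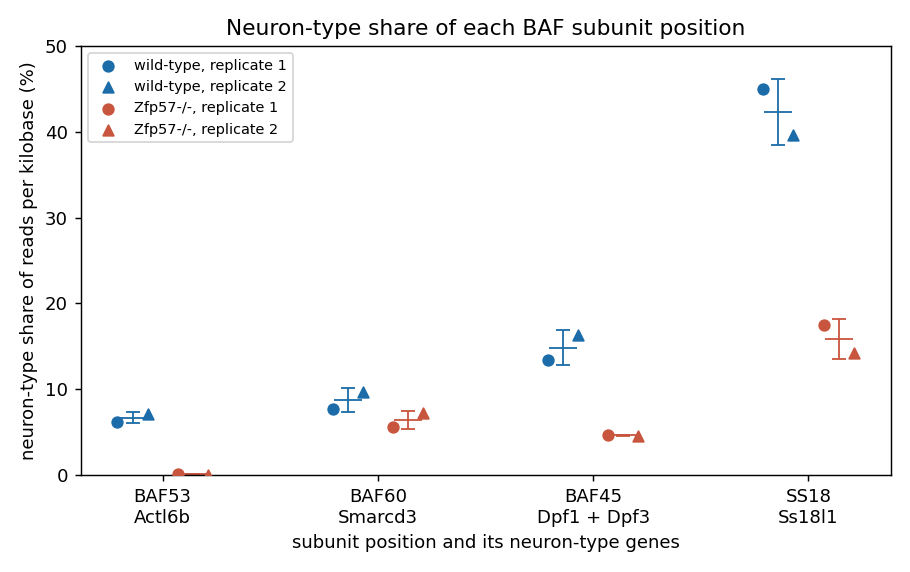
Neuron-type share (percent of reads per kilobase) of each BAF subunit position in the 4 libraries. Points are libraries, and bars are the mean and SD of each genotype (n = 2). The share was lower in *Zfp57*-/- cells by 26.4 percentage points at SS18, 10.2 at BAF45, 6.56 at BAF53 and 2.32 at BAF60.

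The neuron-type members were also set against the neuron markers, since these were lower in *Zfp57*-/- cells too. Per 1000 counts of the 10 neuron markers, *Actl6b* had 3.78 and 4.56 counts in wild-type against 0.822 and 0.474 in *Zfp57*-/- libraries. *Dpf3* had 11.7 and 9.34 against 3.70 and 5.69. Both were thus lower relative to the summed neuron markers as well, without overlap between genotypes. The other 3 members were higher on this scale. *Ss18l1* had 20.7 and 15.4 per 1000 in wild-type against 48.1 and 48.9, *Dpf1* had 7.49 and 10.6 against 34.9 and 43.6, and *Smarcd3* had 6.83 and 10.0 against 33.7 and 53.1. The direction of *Ss18l1* relative to the summed neuron markers was hence opposite to its direction in the library as a whole. Each of the 5 comparisons gave the smallest p that 2 against 2 libraries allow (exact permutation test, two-sided, p = 0.333). The largest part of the sum in *Zfp57*-/- libraries was *Stmn2*, with 902 and 671 counts against 758 and 1561 in wild-type. Log2 fold changes of the 10 single markers ranged from -6.42 to -0.56, with a median of -3.87. *Dpf3* (-4.18) and *Actl6b* (-5.59) both lay within this range.

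The microRNA step of the known circuit is shown by its sequences. The mature miR-9 forms from *Mir9-2* are given as listed in RefSeq (GRCm38.p6), with the seed, bases 2 to 8, in capitals, followed by the place in the 3′ UTR of *Actl6a* that holds the reverse complement of the miR-9-3p seed.
mmu-miR-9-3p, chr13:83738858-83738879, plus strand: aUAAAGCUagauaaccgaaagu
mmu-miR-9-5p, chr13:83738821-83738843, plus strand: uCUUUGGUuaucuagcuguauga
Actl6a 3′ UTR, GRCm38, chr3:32726622-32726651, plus strand: cgtcacctcaacgtctgtAGCTTTAgtaca
The 3′ UTR of *Actl6a* is 371 bases long and held the match AGCTTTA once, at bases 38 to 44 after the stop codon. Of 15654 mouse 3′ UTRs that are at least that long, 2.82% held it within their first 371 bases. The 3′ UTRs of *Actl6b*, *Smarcd1*, *Dpf2*, *Phf10* and *Ss18* held 0 matches.

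The libraries do not measure mature microRNAs, but they hold the long transcripts from which these are cut. All 4 host transcripts examined were lower in *Zfp57*-/- cells. *C130071C03Rik*, which spans *Mir9-2*, had 1018 and 852 counts in wild-type against 22 and 12 in *Zfp57*-/- libraries (log2 fold change -5.85, standard error 0.36, adjusted p = 5.35e-06). *Mir9-3hg* had 65 and 98 counts against 2 and 8 (-4.03, standard error 0.59, adjusted p = 0.000868). Both miR-9 hosts were thus at 22 counts or fewer in each *Zfp57*-/- library, and their part in the level of *Actl6a* was not tested. *Mir124-2hg* had 1210 and 932 counts against 32 and 25 (-5.31, adjusted p = 5.91e-06). *Mir124a-1hg* had 306 and 151 against 87 and 59 (-1.76, adjusted p = 0.0144), with the wild-type replicates further apart than at the other hosts. Its log2 fold change was -0.94 without wild-type replicate 1 and -2.31 without wild-type replicate 2, and it passed in both cases.

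*Rest*, which encodes the repressor, was higher in *Zfp57*-/- cells. It had 1141 and 1613 counts in wild-type against 3133 and 3342 in *Zfp57*-/- libraries, or 1330 and 1449 against 3165 and 3215 normalized counts. The genotypes were far apart compared with the replicates, and differed by 1.20 on the log2 scale (standard error 0.19, adjusted p = 0.00123). It passed under 12 of 13 alternatives, the exception being *Actb* as the scale (0.53, adjusted p = 0.532). Of its partners, *Rcor2* (-0.60, adjusted p = 0.0355) and the deacetylase *Hdac2* (-0.65, adjusted p = 0.0317) were lower. *Rcor1* (0.29, adjusted p = 0.297), *Sin3a* (0.11, adjusted p = 0.683) and *Hdac1* (0.61, adjusted p = 0.0534) did not pass. The calls of *Rcor2* and *Hdac2* were lost without *Zfp57*-/- replicate 1 (adjusted p = 0.312 and 0.344), without *Zfp57*-/- replicate 2 (0.421 and 0.302) and with *Actb* as the scale (0.0705 and 0.0812), and that of *Rcor2* also with no filter (0.0569).

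The splicing regulators PTBP1 and PTBP2 replace each other along the same path, PTBP1 in progenitors and PTBP2 in young neurons, and *Ptbp1* is a known target of miR-124. *Ptbp2* had 3669 and 2975 counts in wild-type against 1008 and 1094 in *Zfp57*-/- libraries (log2 fold change -1.75, standard error 0.24, adjusted p = 0.000669). *Ptbp1* had 2160 and 4355 against 4726 and 5532 (0.65, standard error 0.23, adjusted p = 0.0647) and did not pass. *Ptbp2* made up 46.7% and 26.1% of the reads per kilobase of both genes in wild-type against 9.93% and 9.27% in *Zfp57*-/- libraries, so that the wild-type replicates were further apart than at any BAF position. Over the 12 genes of this list, 7 were lower and 1 was higher in *Zfp57*-/- cells, and the median log2 fold change was -0.63. Over all genes tested, 14.6% passed as lower and 13% as higher.

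**Figure D3:**
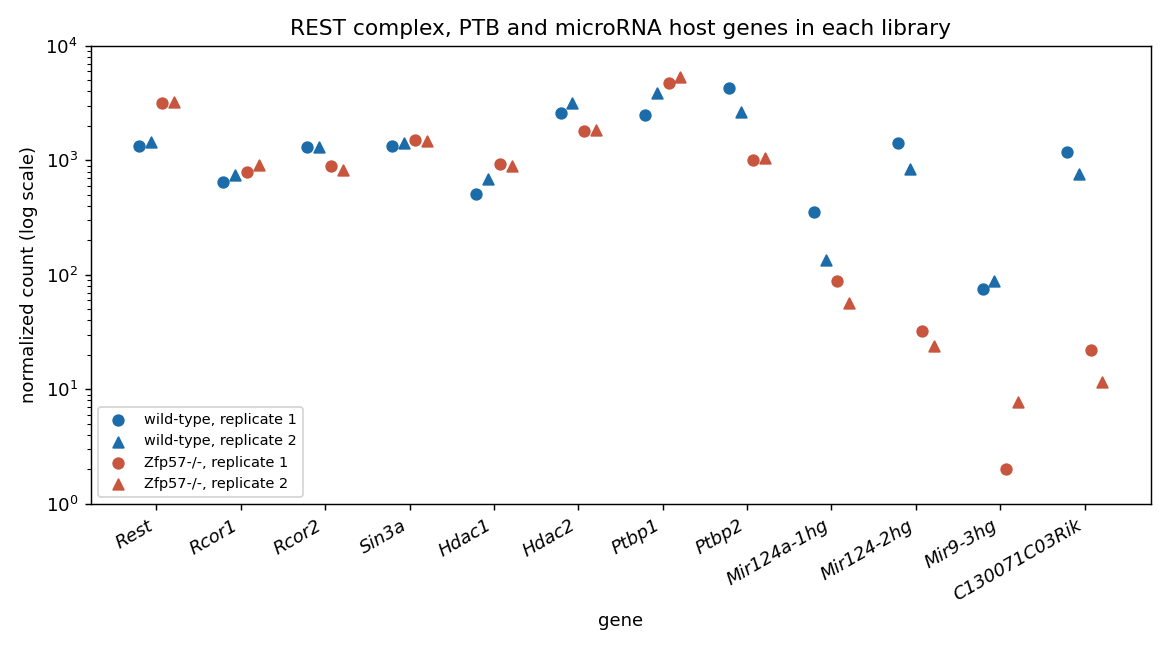
Normalized count (log axis) of the REST complex, PTB and microRNA host genes in the 4 libraries, with points for libraries. *Rest* lies higher in *Zfp57*-/- cells (3190 against 1390 on average), and the hosts of miR-9 and miR-124 lie lower, most of all *C130071C03Rik* (16.9 against 976).

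Among the 21 other subunits of the BAF family, 8 were lower and 2 were higher in *Zfp57*-/- cells, with a median log2 fold change of -0.47. Of all genes tested, 14.6% passed as lower and 13% as higher. Without either wild-type replicate 17 of the 21 passed, and without either *Zfp57*-/- replicate 5 did. The lower ones included *Bcl11b* (-3.67, standard error 0.42, adjusted p = 0.000205) and *Bcl11a* (-2.66, standard error 0.26, adjusted p = 7.02e-05), zinc finger subunits known from cortical neurons. *Bcl11b* had 101 and 137 counts in wild-type against 7 and 12 in *Zfp57*-/- libraries, and *Bcl11a* had 340 and 375 against 65 and 52. Also lower were *Bcl7a* (-1.63, adjusted p = 0.000411), *Bicra* (-1.06, adjusted p = 0.0162) and *Bcl7c* (-0.91, adjusted p = 0.0236). *Bicral* (0.78, adjusted p = 0.0195) was higher. It is the paralogue of *Bicra*, and both encode subunits of the form of the complex known as GBAF. Without *Zfp57*-/- replicate 1 the calls of *Bicral*, *Bicra* and *Bcl7c* were lost (adjusted p = 0.191, 0.180 and 0.254), and likewise without *Zfp57*-/- replicate 2 (0.204, 0.142 and 0.0551). With *Actb* as the scale *Bicral* was at 0.09 (adjusted p = 0.931).

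Of the catalytic subunits, *Smarca2* fell from 877 and 716 to 326 and 399 counts (log2 fold change -1.22, standard error 0.25, adjusted p = 0.00539). *Smarca4*, with 3119 and 5564 against 2699 and 3377 counts, did not pass (-0.53, adjusted p = 0.096). Of the scaffold subunits, *Smarcc2* had 983 and 1638 counts against 649 and 774 (-0.90, standard error 0.20, adjusted p = 0.00969), and *Smarcc1* did not pass (-0.24, adjusted p = 0.358). Per kilobase, *Smarcc2* made up 38.3% and 41.5% of both scaffold genes in wild-type against 28.4% and 30.9% in *Zfp57*-/- libraries. *Smarca2* made up 11.3% and 5.52% of both catalytic genes in wild-type against 5.20% and 5.09% in *Zfp57*-/- libraries, so that wild-type replicate 2 was near the *Zfp57*-/- value.

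At BAF60 a further homologue moved. *Smarcd2*, which encodes BAF60b, had 214 and 328 counts in wild-type against 413 and 475 in *Zfp57*-/- libraries (log2 fold change 0.68, standard error 0.20, adjusted p = 0.033). It made up 20.1% and 16.6% of the reads per kilobase of the 3 BAF60 genes in wild-type against 28.9% and 30.3% in *Zfp57*-/- libraries. The call of *Smarcd2* was lost without *Zfp57*-/- replicate 1 (0.76, adjusted p = 0.201), without *Zfp57*-/- replicate 2 (0.62, adjusted p = 0.317), by DESeq2 (adjusted p = 0.0552) and with *Actb* as the scale (0.04, adjusted p = 0.969). The call of *Smarcc2* was lost without either *Zfp57*-/- replicate (adjusted p = 0.184 and 0.0822).

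**Figure D4:**
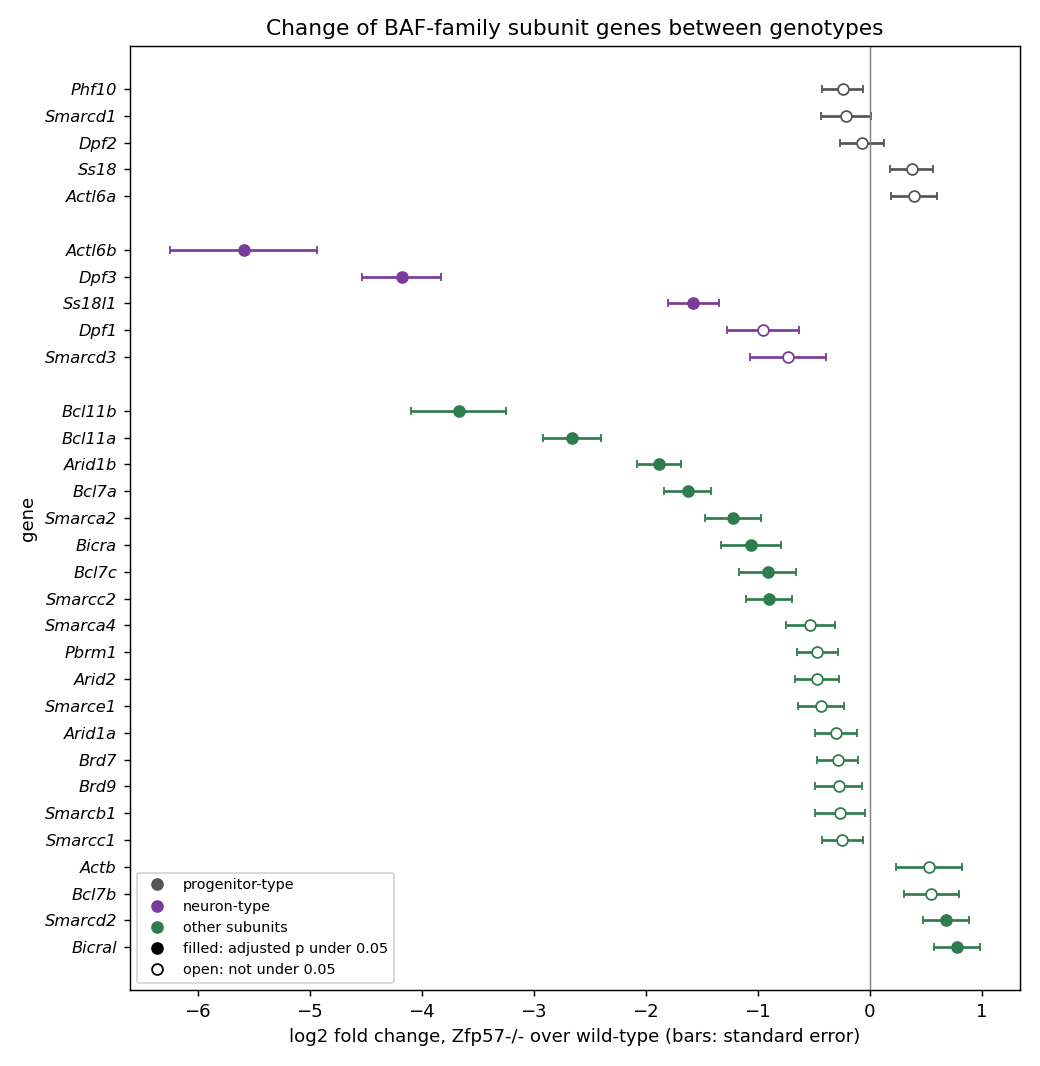
Log2 fold change (*Zfp57*-/- over wild-type, with standard error) of the progenitor-type, neuron-type and other BAF-family genes. Points are filled for genes past the threshold, which were 3 of 5 neuron-type, 0 of 5 progenitor-type and 10 of 21 other subunits. With *Actb* as the scale, *Actl6a* and *Ss18* turn to -0.22 and -0.27.

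*Actl6a* and *Actb* also serve in the INO80 and TIP60 complexes, whose other subunits were counted for comparison. Of 21 such genes, 2 were higher and 2 were lower in *Zfp57*-/- cells (13% and 14.6% of all genes tested). The median log2 fold change of the 21 was 0.12. Those of the 21 with the highest normalized counts, *Trrap* (-0.51, adjusted p = 0.074) and *Ep400* (-0.31, adjusted p = 0.274), did not pass.

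The allele-specific counts give the JF1 (maternal) share of each member, since reads over strain differences were assigned to JF1 or B6. Of the 10 members, 9 reached 10 normalized allelic counts in each wild-type library and were tested with edgeR among all 10977 autosomal genes that did. *Actl6b* had 2 and 16 allelic reads in wild-type against 2 and 0 in *Zfp57*-/- libraries and was not tested. In wild-type cells 3 of 9 members differed between alleles (23.6% of all genes), in *Zfp57*-/- cells 3 of 9 (21.8%), and the allelic difference itself differed between genotypes for 1 of 9 (14.5%). By DESeq2 each of these counts was 0, with 1, 1 and 0 members at an unadjusted p of 0.05.

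*Ss18* was the member whose allelic difference changed. Its JF1 and B6 counts were 118 and 71 in wild-type replicate 1, 167 and 115 in replicate 2, 153 and 175 in *Zfp57*-/- replicate 1, and 187 and 184 in replicate 2. The JF1 share was 0.624 (95% Wilson interval 0.553 to 0.690) and 0.592 (0.534 to 0.648) in wild-type and 0.466 (0.413 to 0.521) and 0.504 (0.453 to 0.555) in *Zfp57*-/- cells. It was thus above 0.5 in both wild-type libraries and near 0.5 in both others, whereas the 15 nearest genes (each library holding 10 allelic reads of them or more) had a median of 0.534 and 0.535. In wild-type cells *Ss18* passed the allele test (log2 ratio 0.62, edgeR adjusted p = 0.00166), and without wild-type replicate 1 it did not. The log2 ratio of JF1 to B6 differed between genotypes by -0.70 (standard error 0.21, edgeR adjusted p = 0.0133). The mean normalized B6 count was 93.05 for wild-type against 177 for *Zfp57*-/- libraries, and the mean JF1 count was 144 against 167. The call was lost by DESeq2 (adjusted p = 0.456), without wild-type replicate 1 (0.179), without wild-type replicate 2 (0.0708) and without *Zfp57*-/- replicate 1 (0.0746), and over all alternatives adjusted p lay between 0.00670 and 0.456. Without *Zfp57*-/- replicate 2 the contrast called 2 members, *Ss18* and *Dpf3*.

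*Actl6a* and *Smarcd1* leaned to B6 and *Phf10* leaned to JF1, in each genotype. The JF1 share of *Smarcd1* was 0.428 and 0.440 in wild-type against 0.418 and 0.441 in *Zfp57*-/- cells (edgeR adjusted p = 0.0158 and 0.00999). That of *Actl6a* was 0.455 and 0.448 against 0.439 and 0.418, and it passed in *Zfp57*-/- cells (adjusted p = 0.000791) and not in wild-type (0.055). That of *Phf10* was 0.540 and 0.636 against 0.650 and 0.603 (adjusted p = 0.0493 and 0.0116). The allelic difference did not pass as differing between genotypes for *Smarcd1*, *Actl6a* or *Phf10* (adjusted p = 0.965, 0.706 and 0.789). With a replicate block *Phf10* lost its wild-type call. The wild-type calls of *Smarcd1* and *Phf10* were lost without either wild-type replicate, which left 0 called members without replicate 1 and 1, *Ss18*, without replicate 2. The *Zfp57*-/- calls of *Smarcd1* and *Phf10* were lost without *Zfp57*-/- replicate 1, which left 1 called member.

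*Ss18l1* had a JF1 share of 0.476 and 0.546 in wild-type against 0.457 and 0.571 in *Zfp57*-/- cells, on 77 to 238 allelic reads a library. Its decrease was alike on both alleles, with log2 changes of -1.39 on JF1 and -1.37 on B6. *Dpf1* and *Smarcd3* had 16 to 58 allelic reads a library, and *Dpf3* had 40 and 43 in wild-type against 5 and 3 in *Zfp57*-/- libraries. None of these 3 genes passed an allele test on all libraries, and the call of *Dpf3* without *Zfp57*-/- replicate 2 rests on 5 reads in the remaining *Zfp57*-/- library.

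Among the other subunits, 3 had reads of a single allele, or nearly so, in 1 genotype. *Arid1b* had JF1 and B6 counts of 205 and 219 and of 286 and 306 in wild-type, but 0 JF1 reads and 148 and 139 B6 reads in *Zfp57*-/- libraries. The 0 of 287 reads allow a JF1 share of up to 0.0105, and the 15 neighbouring genes had a median of 0 as well, against 0.537 in wild-type. Its total log2 fold change was -1.88 (adjusted p = 0.000101), and its B6 counts alone changed by -0.90. *Smarcc1* had 992 and 1339 JF1 reads against 1 and 0 B6 reads in wild-type, with neighbours at a median of 1.00, and a JF1 share of 0.453 and 0.483 in *Zfp57*-/- cells. *Arid1a* had a JF1 share of 0.970 and 0.984 in wild-type against 0.487 and 0.505 in *Zfp57*-/- cells, while its neighbours were at 0.520 and 0.485. All 3 passed the genotype-by-allele contrast (edgeR adjusted p = 1.83e-25, 9.95e-52 and 2.42e-16), and these genes were singled out after their values were seen.

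**Figure D5:**
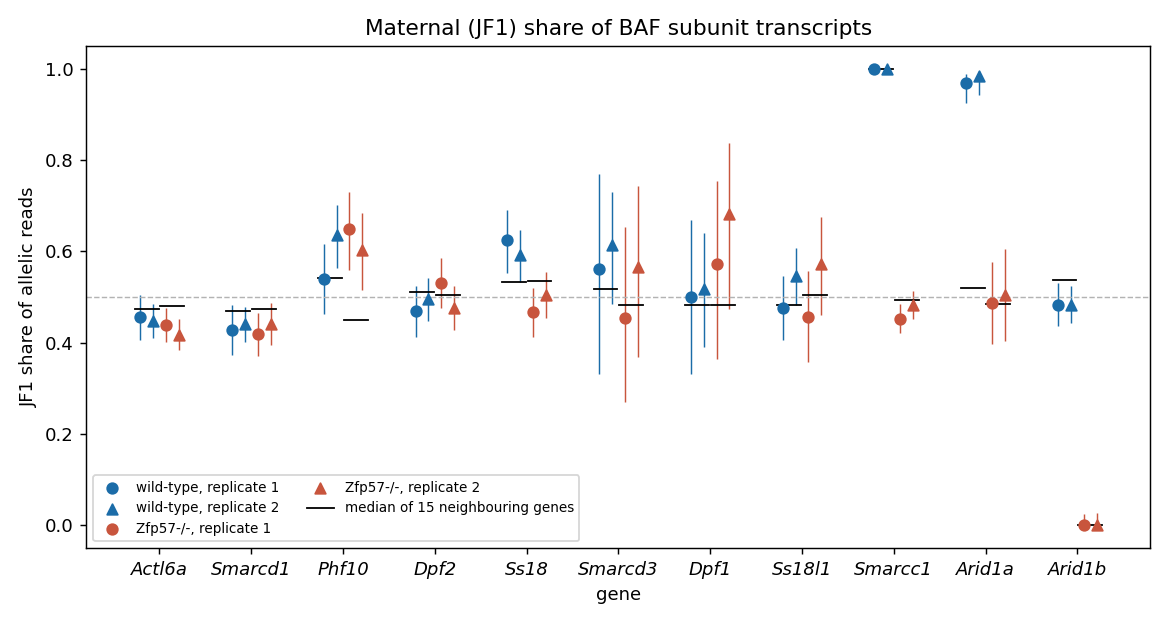
JF1 (maternal) share of allelic reads in each library for 8 BAF members and 3 other subunits, with 95% Wilson intervals for counting error. Black lines are the medians of 15 neighbouring genes in wild-type (left) and *Zfp57*-/- cells (right). *Ss18* moves from 0.624 and 0.592 to 0.466 and 0.504, *Smarcc1* from 0.999 and 1.00 to 0.453 and 0.483, and *Arid1b* from 0.483 in both wild-type libraries to 0.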

How the data were processed

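Total RNA of day 12 cells (2 wild-type and 2 *Zfp57*-/- JB1 cultures) was sequenced in paired ends after ribosomal depletion, with strand kept. After trimming (Trimmomatic 0.36) and alignment to GRCm38 (STAR 2.5.4a, unique alignments only), the authors deposited raw counts per GENCODE vM20 gene made by featureCounts (Subread 1.6.0). A second deposited table holds such counts separately for JF1 and B6 reads, divided at strain SNPs after alignment to a masked genome. Neither table is normalized.

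Gene identifiers were paired with symbols through GENCODE vM21 (54721 of 55602 matched). Genes with more than 8 counts over the 4 libraries were compared with edgeR's robust quasi-likelihood test and TMM normalization. The allele model took the 8 columns of JF1 and B6 counts, with library terms and 1 allele effect for each genotype, over autosomal genes that reached 10 normalized allelic counts in each wild-type library. Shares are neuron-type reads per kilobase of exon length over those of the whole position. Wilson intervals cover counting error only. No member shared exon bases with a gene on its own strand, and 0 of 11 pairs of paralogues shared a 50-base stretch of transcript. On the opposite strand the longest overlap was that of *Smarcd3*, with 2466 of its 5120 exon bases shared with *Chpf2*. *Phf10* shared 470 bases with *1600012H06Rik* and *Actl6a* shared 452 with *Mrpl47*, and other overlaps were shorter. The authors' methods name no strand setting for the counting. The effect of these overlaps on the counts and shares, that of BAF60 among them, was not tested. R 4.3.3, edgeR 4.0.16, DESeq2 1.42.0, Python 3.11.15, scipy 1.17.1 and matplotlib 3.10.9 were used, and the tests were tried on simulated data.

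The members and all gene lists were chosen with earlier results of these data known. The 10 members are named throughout. Genes of the lists of other BAF subunits and of regulators could be named, and of other lists the 2 genes with the highest mean normalized count and defining markers whose value is set beside a member. Exceptions singled out by their values are said to be so. Alternatives were DESeq2's test and size factors, upper-quartile scaling, *Actb* as the scale, other filters, a replicate block, a gene length offset, each library left out, and for shares other denominators.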

Additional observations from a re-analysis of the deposited data

Results flagged for a closer look

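The JF1 to B6 log2 ratio of *Ss18* differed between genotypes by -0.70 (edgeR adjusted p = 0.0133), with JF1 shares of 0.624 and 0.592 in the wild-type libraries and 0.466 and 0.504 in the *Zfp57*-/- libraries. It is listed because the test of the difference itself called it, as 1 of 9 members tested, where 14.5% of all 10977 genes were called. It was not called by DESeq2 (adjusted p = 0.456), without wild-type replicate 1 (0.179), without wild-type replicate 2 (0.0708) or without *Zfp57*-/- replicate 1 (0.0746).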

How the results depend on the processing

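Depth limits *Actl6b*, at 2 and 1 counts in *Zfp57*-/- libraries, and the alleles of *Dpf1*, *Dpf3* and *Smarcd3*. With 2 libraries a genotype, leaving 1 out assumes that the lone library varies like the other genotype. The calls of *Actl6b*, *Dpf3* and *Ss18l1* held under all 13 alternatives. Leaving out a library in turn gave 0 to 2 progenitor-type, 3 to 5 neuron-type and 5 to 17 other subunits, 2831 to 9947 of all genes, and differences in share of -7.01 to -6.11 (BAF53), -3.31 to -1.33 (BAF60), -11.6 to -8.74 (BAF45) and -29.1 to -23.7 percentage points (SS18). It gave 0 to 2 members in the genotype-by-allele contrast, 0 to 4 in the wild-type and 1 to 3 in the *Zfp57*-/- allele test. Without wild-type replicate 1, *Smarcd1* was at -0.489 and passed. Without wild-type replicate 2, the log2 fold change of *Smarcd1* was 0.0863 and that of *Dpf2* 0.0580, and without *Zfp57*-/- replicate 1 that of *Dpf2* was 0.0452. *Actb* as the scale moved the median of all genes from -0.01 to -0.68 and left 3480 genes, 486 higher and 2994 lower against 2607 and 2915, with *Actl6a* at -0.22 and *Ss18* at -0.27 (0.46 and 0.41 relative to that median). A gene length offset gave 0.0405 for *Dpf2*. Shares of counts differed by -7.16 (BAF53), -8.68 (BAF45) and -17.3 (SS18) points, and BAF45 without *Phf10* by -23.6. DESeq2 left 0 members in each of the 3 allele tests. The causes were not tested.

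The labels do not say whether libraries with the same replicate number were paired. Over 10149 genes the deviations of libraries with the same number had a correlation of 0.156. The replicate block gave 0 progenitor-type, 4 neuron-type (with *Dpf1*) and 10 other subunits and 6984 genes in all, and 1, 2 (without *Phf10*) and 3 members in the genotype-by-allele contrast and the wild-type and *Zfp57*-/- allele tests. With a gene length offset besides, *Ss18* passed, which made 1 progenitor-type member, and *Dpf2* was at 0.0459.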
